A study of Homo sapiens with 7 samples.

Results

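Entry into mitosis, chromosome segregation and cytokinesis depend on a shared program of genes that is switched on late in the cell cycle. The 53 genes described here, called the mitosis genes below, are a fixed list of kinases, kinetochore, spindle and cytokinesis genes with their regulators. They were picked by gene symbol from the 21305 genes of the table, with no threshold on their values. All 53 were found, and all 53 were among the 15420 genes that had a mean normalized count of at least 10 and were tested. By role, 11 belong to the cyclin B kinase, its regulators and FOXM1, 9 to the spindle checkpoint and anaphase, 4 to the chromosomal passenger complex, 8 to the centromere and kinetochore, 9 to spindle assembly and its motors, 7 to the midzone and cytokinesis, and 5 to mitotic chromosome structure.

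The study asked what lowering the long non-coding RNA GRASLND does to the transcriptome of melanoma cells. RNA was sequenced from 501Mel, a human melanoma line of melanocytic character, after stable transduction with a doxycycline-inducible short hairpin. The control cells carried a hairpin against lacZ, a bacterial gene (shlacZ, n = 3), and the knockdown cells carried sh4 (n = 2) or sh8 (n = 2), both directed at GRASLND. All 7 libraries were labelled dox-induced, so the controls received doxycycline too, and the study collected RNA 3 days after induction. The cells were puromycin-selected pools and not single clones. The labels give replicate numbers but do not say whether replicates came from separate cultures, so the p-values measure only the spread between these libraries.

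Reads assigned to the 21305 genes, recovered from the normalized counts, summed to 13337317 to 22855232 per library. These sums are not the number of reads sequenced. The lowest count of a mitosis gene in any library was 129 reads. GRASLND itself, the target of both hairpins, read 309, 330 and 290 in lacZ, 175 and 131 under sh4, and 227 and 163 under sh8. The highest knockdown library was at 227 and the lowest control at 290, a separation shared by 11.0% of all genes tested. The sh4 mean was 49.5% of the control mean, and this change passed the limma test (log2 fold change -1.02, adjusted p 0.00662). The sh8 mean was 63.0% of the control mean, and this change did not pass (-0.68, adjusted p 0.110). With the hairpins pooled the fall passed (-0.85, adjusted p 0.0402). Of 7 melanocytic markers, all were detected in every group, which fits the label of the line. Of 10 markers of other cell types, 8 were not among the genes of the table, CD68 was present at 441 to 675, and COL1A1 lay between 5.24 and 16.4. The first lacZ library stood apart from the other controls. Its mean chi-square per gene was 23.5 and 23.1 against lacZ replicates 2 and 3, which differed from each other by 7.25. The mitochondrial share of the counts was 10.7% to 11.2% in lacZ, 10.7% to 12.4% under sh4 and 12.4% to 13.6% under sh8, and its part in the results was not tested.

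Mitotic genes are silent early in the cell cycle because the DREAM complex holds them repressed, and they are activated in G2 by the MYB-MuvB complex together with FOXM1. DREAM and MYB-MuvB contact a short promoter element, the cell cycle genes homology region (CHR), and the factor NF-Y contacts CCAAT boxes that lie upstream of it. Some of the protein products are then removed by the anaphase-promoting complex as cells leave mitosis, and the next round starts from low levels of these proteins. Because the genes are activated in G2, their RNA in an unsorted culture can follow the share of cells in G2 and M. In bulk RNA, fewer cells in these phases and less of each transcript per cell cannot be told apart.

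Both motifs were common in the promoter sequences of the mitosis genes, but their order was not counted. RefSeq windows of 300 bases (GRCh38.p14, 250 bases before to 50 after the start) were matched by symbol for 46 of the 53 genes. A CHR was searched as TTTGAA or TTCGAA and a CCAAT box as CCAAT, each on both strands with overlapping matches allowed. A CHR was present in 36 of the 46 windows (78.3%), against 16.6% of all 27305 promoter windows. A CCAAT box was likewise present in 36 (78.3%), against 35.7% of all windows, and both motifs occurred together in 65.2%, against 6.58%. At least 2 CCAAT boxes were found in 54.3% of the windows, against 11.3% of all. A match is a description of letters and not evidence of a bound factor.

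Stretches of 130 bases (110 before to 20 after the start, all on the plus strand) are shown for 6 genes, chosen as textbook G2/M promoters (CCNB2, PLK1), genes that fell under sh4 (CKS2, ESPL1, INCENP) and the gene on which the hairpins differed (ANLN). Capitals mark CHR and CCAAT matches, which read TTCAAA and ATTGG where the match is on the other strand. The stretches are, in this order, chr15:59105036-59105165, chr16:23678779-23678908, chr9:89311085-89311214, chr12:53268189-53268318, chr11:62123901-62124030 and chr7:36389752-36389881.
CCNB2: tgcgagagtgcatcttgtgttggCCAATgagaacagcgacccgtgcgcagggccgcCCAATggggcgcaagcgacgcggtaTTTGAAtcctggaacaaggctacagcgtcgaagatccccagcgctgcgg
PLK1: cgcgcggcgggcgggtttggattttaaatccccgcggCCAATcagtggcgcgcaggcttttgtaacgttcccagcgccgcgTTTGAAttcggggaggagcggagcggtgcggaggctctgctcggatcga
CKS2: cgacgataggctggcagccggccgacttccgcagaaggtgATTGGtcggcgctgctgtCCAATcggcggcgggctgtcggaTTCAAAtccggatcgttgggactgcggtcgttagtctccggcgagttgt
ESPL1: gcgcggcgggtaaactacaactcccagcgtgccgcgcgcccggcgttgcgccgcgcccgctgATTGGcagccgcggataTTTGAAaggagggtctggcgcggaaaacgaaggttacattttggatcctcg
INCENP: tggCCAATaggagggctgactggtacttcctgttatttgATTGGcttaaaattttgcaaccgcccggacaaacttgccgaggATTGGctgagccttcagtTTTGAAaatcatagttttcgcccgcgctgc
ANLN: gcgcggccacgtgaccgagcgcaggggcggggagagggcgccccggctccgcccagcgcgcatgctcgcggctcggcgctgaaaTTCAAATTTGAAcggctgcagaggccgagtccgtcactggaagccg
The first 5 stretches hold at least 1 CCAAT box upstream of a CHR. They are examples only, as both motifs occurred in 11 of the 16 windows of genes that fell under sh4 (68.8%). In the other 30 windows of mitosis genes the share was 63.3%, and in all promoter windows 6.58%. The ANLN stretch holds 2 adjoining CHR matches, 1 on each strand, and no CCAAT box.

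In the control cells the mitosis genes were well expressed. Their mean normalized count over the 7 libraries ran from 168 (CDC25C) to 19760 (MKI67), with a median of 1634. Per kilobase of the canonical transcript, the lacZ mean was lowest for CDC25C, a phosphatase that activates the cyclin B kinase, at 80.1. It was highest for the condensin subunit SMC4 at 2367, followed by MKI67 (1665), TPX2 (1659) and TOP2A (1651). Together the 53 genes took 0.903%, 0.865% and 0.844% of the normalized counts in the lacZ libraries, 0.690% and 0.807% under sh4, and 0.851% and 0.778% under sh8. The first sh4 library was lowest, and sh8 replicate 1 lay within the range of the controls.

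Libraries of the same hairpin differed from each other. The mean log2 level of the 53 genes, relative to the mean of the controls, was -0.09, 0.08 and 0.01 in the lacZ libraries, -0.50 and -0.19 under sh4, and -0.11 and -0.18 under sh8. All 4 knockdown libraries were thus below all 3 controls, with sh8 replicate 1 (-0.11) next to lacZ replicate 1 (-0.09). In sh4 replicate 1 all 53 genes lay under the lacZ mean, and in sh4 replicate 2 this held for 43. The corresponding numbers were 35 and 41 under sh8, and 33, 12 and 25 in the lacZ libraries themselves. The first sh4 library was the lower of the pair for 51 of the 53 genes. No count per library in this paragraph was made over all genes, so a shift of a whole library was not separated. Among the controls, lacZ replicate 1 had the lowest value for 29 genes. The spread was widest for CDC20 (coefficient of variation 26.2%), PLK1 (21.7%), CKS1B (21.1%), BIRC5 (20.2%) and UBE2C (20.1%), each lowest in lacZ replicate 1, and narrowest for ECT2 (1.03%).

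**Figure D1:**
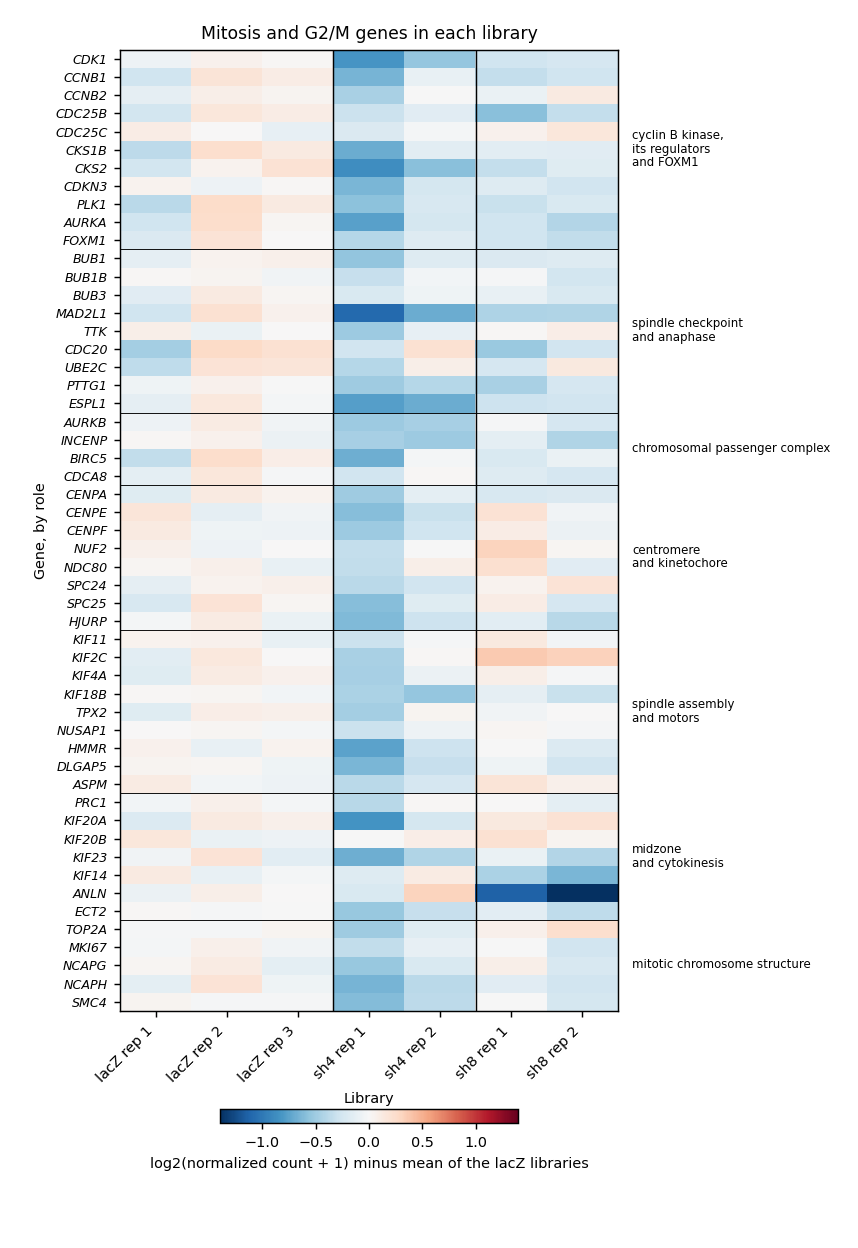
Heat map of the 53 mitosis genes (rows, grouped by role) in the 7 libraries (columns). Color gives log2(normalized count + 1) minus the mean of the 3 lacZ libraries; sh4 replicate 1 is below the control mean in all 53 rows, and ANLN is darkest in both sh8 libraries.

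With the hairpins pooled, the first question was whether the program as a whole was lower in knockdown than in control cells. The log2 fold change was negative for 50 of the 53 genes (94.3%, against 50.6% of all genes). The median of the 53 was -0.25, where the median of all genes was -0.01. None passed an adjusted p of 0.05 in limma, in either direction, whereas 2.06% of all genes tested were called lower and 2.55% higher. At an unadjusted p under 0.05 in limma, 16 of the 53 were lower, against 12.9% of all genes, and 0 were higher. Limma-voom on reads recovered from the normalized counts also gave 0 at the adjusted threshold. For 12 of the 53 genes every knockdown library lay under every control library, against 1692 of all 15420 genes tested (11.0%). The typical 95% interval reached 0.34 to either side of the estimate, so single changes of the size of the median could not be resolved. In a fit with 3 groups, in which the mean of both hairpins was set against lacZ, 9 genes were lower (CDK1, CKS2, MAD2L1, PTTG1, ESPL1, INCENP, KIF18B, ANLN and ECT2), or 17.0%, while the share of all genes called lower was 8.77% in that fit.

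The lower levels were clearest under sh4. There 16 of the 53 genes (30.2%) fell and 0 rose at an adjusted p under 0.05. Of all genes, 11.9% were called lower and 10.5% higher. The log2 fold change was negative for 51 of the 53 (96.2%, against 50.6% of all genes), and their median was -0.35. None passed the study's additional threshold of a 2-fold change, which 3.37% of all genes passed in the lower direction. Both sh4 libraries lay under all 3 controls for 27 of the 53 genes, against 3945 of all 15420 genes tested (25.6%). The 16 genes that fell were at 53.7% to 74.6% of their control mean. The count depended on single libraries, and so did the share of all genes called lower. Without sh4 replicate 1 it was 2 genes (3.77%, against 5.32% of all genes), and without lacZ replicate 2 it was 4 (7.55%, against 7.41%), so in these fits the mitosis genes were near or under the background. It was 6 without lacZ replicate 3 (11.3%, against 7.28%), 9 without sh4 replicate 2 (17.0%, against 5.43%) and 23 without lacZ replicate 1 (43.4%, against 17.2%). CDK1 and ESPL1 fell in each of the 17 alternative fits.

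**Figure D2:**
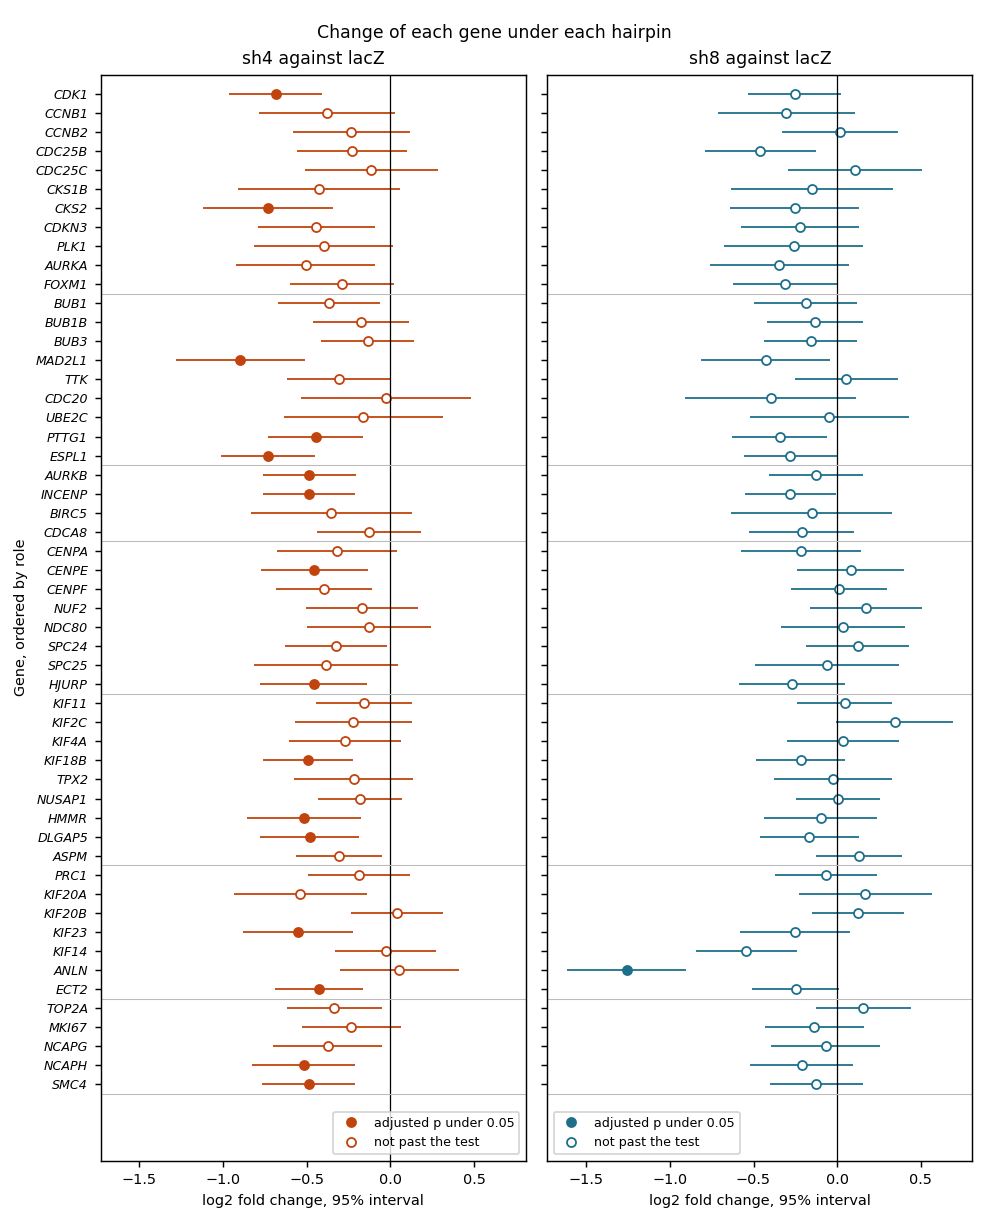
Log2 fold change of each mitosis gene against lacZ under sh4 (left) and sh8 (right), with 95% intervals from limma; genes are ordered by role and filled points passed an adjusted p of 0.05. Of the filled points, 16 lie left of 0 under sh4 and 1, ANLN, under sh8.

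Among the genes of mitotic entry, 2 of 11 fell under sh4 (18.2%, against 11.9% of all genes). Each role holds few genes, so a single call moves its share. CDK1, the catalytic subunit of the cyclin B kinase (chr10:60778331-60794852, plus strand of hg38), had a normalized count of 1829, 2005 and 1956 in the lacZ libraries, 1085 and 1326 under sh4, and 1595 and 1640 under sh8. The 3 groups did not overlap, and sh4 was lowest. The mean was 1930 ± 90.8 (SD, n = 3) in lacZ and 1206 ± 170 (SD, n = 2) under sh4, a log2 fold change of -0.68 (SE 0.12, adjusted p 0.00416). CKS2, a small subunit that docks onto the same kinase, stood at 513, 639 and 711 in lacZ, 335 and 409 under sh4 and 486 and 546 under sh8 (sh4 log2 fold change -0.73, SE 0.17, adjusted p 0.0145). Its sh4 values lay under all others. CDKN3, a phosphatase that acts on cyclin-dependent kinases, read 486, 447 and 475 in lacZ, 302 and 395 under sh4 and 415 and 390 under sh8. Both hairpins lay under the controls without overlap, but the sh4 difference of -0.44 did not pass (adjusted p 0.0697). CDC25B, a phosphatase that activates the kinase and the most abundant gene of this role by normalized count, was at 3136, 4174 and 4023 in lacZ, 3033 and 3370 under sh4 and 2504 and 2967 under sh8. Its lowest values were those of sh8, where the log2 fold change was -0.46 (adjusted p 0.134). The cyclins themselves did not pass the test under sh4. The log2 fold change was -0.38 for CCNB1 (adjusted p 0.168) and -0.23 for CCNB2 (adjusted p 0.320). It was -0.40 for the kinase PLK1, -0.51 for the kinase AURKA and -0.29 for the transcription factor FOXM1, with adjusted p values of 0.155, 0.0771 and 0.170.

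Of the 9 genes of the spindle checkpoint and anaphase, 3 fell under sh4 (33.3%, against 11.9% of all genes). MAD2L1, which delays anaphase while kinetochores are unattached (chr4:120055623-120066858, minus strand), had the deepest sh4 change of all 53 genes. It stood at 1034, 1459 and 1306 in lacZ, 587 and 772 under sh4, and 929 and 936 under sh8. Both hairpins were under the controls without overlap, and the sh4 mean of 679 ± 130 (SD, n = 2) was 53.7% of the control mean of 1266 ± 215 (SD, n = 3; log2 fold change -0.90, SE 0.17, adjusted p 0.0055). ESPL1 encodes separase, the protease that opens the cohesin ring at anaphase (chr12:53268299-53293638, plus strand). It read 1149, 1387 and 1232 in lacZ, 733 and 775 under sh4, and 1022 and 1041 under sh8. The 3 groups were again apart, and the sh4 change was -0.73 (SE 0.13, adjusted p 0.00319). PTTG1, or securin, the inhibitor of separase, was at 931, 1015 and 967 in lacZ, 689 and 737 under sh4, and 709 and 825 under sh8. Its sh4 change was -0.44 (SE 0.13, adjusted p 0.0317), and the value for sh8 was -0.34 (adjusted p 0.188). BUB3, a checkpoint subunit, was at 2308, 2801 and 2621 in lacZ, 2208 and 2473 under sh4 and 2390 and 2215 under sh8. Its groups overlapped, with a sh4 value of -0.14 (95% interval -0.41 to 0.14). CDC20, the activator of the anaphase-promoting complex, read 1096, 1841 and 1768 in lacZ, 1273 and 1768 under sh4, and 1065 and 1265 under sh8. Its first control library lay among the knockdown libraries.

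The chromosomal passenger complex corrects faulty attachments of chromosomes to the spindle. Of its 4 genes, 2 fell under sh4 (50%, against 11.9% of all genes). Its scaffold INCENP stood at 2584, 2663 and 2404 in lacZ, 1843 and 1796 under sh4, and 2313 and 1900 under sh8. All 4 knockdown libraries lay under the controls. The sh4 change was -0.49 (SE 0.12, adjusted p 0.0188). Its kinase AURKB was at 1259, 1430 and 1279 in lacZ, 927 and 960 under sh4, and 1305 and 1121 under sh8. Its sh4 change was -0.48 (adjusted p 0.0208), while sh8 replicate 1 lay among the controls. The log2 fold changes under sh4 were -0.35 for BIRC5 (survivin) and -0.13 for CDCA8 (borealin), with adjusted p values of 0.271 and 0.559.

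Kinetochores tie chromosomes to spindle fibers. Of the 8 genes of the centromere and kinetochore, 2 fell under sh4 (25%, against 11.9% of all genes). HJURP, the chaperone that loads the centromeric histone CENPA, was at 1495, 1649 and 1427 in lacZ, 988 and 1240 under sh4, and 1371 and 1159 under sh8 (sh4 log2 fold change -0.46, SE 0.14, adjusted p 0.0444). Both hairpins were under the controls without overlap. CENPE, a kinetochore motor, stood at 2866, 2340 and 2456 in lacZ, 1683 and 2049 under sh4, and 2938 and 2461 under sh8. It fell under sh4 (-0.45, adjusted p 0.0464), whereas 1 sh8 library lay over the controls and the other among them. CENPF, the most abundant gene of this role, read 13666, 12021 and 11906 in lacZ, 8774 and 10294 under sh4, and 13459 and 11775 under sh8. The sh4 libraries lay under all others, yet the difference of -0.40 did not pass (adjusted p 0.0515). The genes of the NDC80 complex (NDC80, NUF2, SPC24 and SPC25), which grips microtubules, had sh4 log2 fold changes between -0.38 and -0.13, and none passed. The calls of HJURP and CENPE were the least stable of the 16, passing in 6 and 4 of the 17 alternative fits.

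Among 9 genes of the spindle, 3 fell under sh4 (33.3%, against 11.9% of all genes). KIF18B, a motor that shortens astral microtubules, stood at 1250, 1262 and 1206 in lacZ, 911 and 850 under sh4, and 1139 and 997 under sh8. All groups were apart, and the sh4 change was -0.49 (SE 0.12, adjusted p 0.0162). HMMR, which helps to focus spindle poles, and DLGAP5, which stabilizes fibers at the kinetochore, had sh4 changes of -0.52 and -0.48 (adjusted p 0.036 and 0.0274). KIF2C, a kinesin that takes microtubules apart at centromeres, moved the other way under sh8. It was at 1265, 1559 and 1411 in lacZ, 1025 and 1420 under sh4, and 1808 and 1763 under sh8. Both sh8 libraries lay over all controls, with a log2 fold change of 0.34 that did not pass (adjusted p 0.276). ASPM, a spindle pole protein and the most abundant gene of this role, read 7632, 6886 and 6725 in lacZ, 5428 and 6025 under sh4, and 8023 and 7445 under sh8. Its sh4 value of -0.31 did not pass (adjusted p 0.0825).

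Of the 7 genes of the midzone and cytokinesis, 2 fell under sh4 (28.6%, against 11.9% of all genes). ECT2 activates RHOA at the cell equator. It had 3801, 3724 and 3757 in lacZ, 2608 and 3006 under sh4, and 3399 and 2950 under sh8. All 4 knockdown libraries lay under the tight controls, and the sh4 change was -0.43 (SE 0.12, adjusted p 0.0271). KIF23, a motor of the centralspindlin complex that recruits ECT2, stood at 5308, 6230 and 4959 in lacZ, 3417 and 4083 under sh4, and 5135 and 4114 under sh8 (sh4 change -0.55, SE 0.15, adjusted p 0.0245). The sh4 values were lowest, and sh8 replicate 1 lay among the controls. KIF20B and ANLN were the 2 genes of the 53 with a positive sh4 value, at 0.04 and 0.05.

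For mitotic chromosome structure, 2 of 5 genes fell under sh4 (40%, against 11.9% of all genes), both condensin subunits. NCAPH was at 1996, 2494 and 2103 in lacZ, 1391 and 1678 under sh4, and 1955 and 1823 under sh8 (sh4 change -0.52, SE 0.14, adjusted p 0.0237). SMC4, the ATPase of both condensins, read 12414, 11971 and 11949 in lacZ, 7944 and 9374 under sh4, and 12054 and 10246 under sh8 (sh4 change -0.49, SE 0.12, adjusted p 0.0196). In both genes the sh4 libraries lay under all others. MKI67, the source of the Ki-67 proliferation antigen and the most abundant of the 53 genes, was at 20755, 22308 and 20471 in lacZ, 16618 and 19498 under sh4, and 21110 and 17564 under sh8. Both sh4 libraries lay under the controls, but the difference of -0.23 did not pass (95% interval -0.53 to 0.06, adjusted p 0.238).

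Promoter letters were also counted by response, without a test of the difference. A CHR was present in 75.0% of the 16 that fell and in 80.0% of the other 30 with a window, and a CCAAT box in 87.5% and 73.3%.

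Under sh8, 1 of the 53 genes fell, against 1.54% of all genes called lower. It was ANLN, which also passed the study's 2-fold threshold, as 0.506% of all genes did in this direction. ANLN encodes anillin, an actin-binding scaffold of the cleavage furrow (chr7:36389821-36453791, plus strand). Its normalized count was 3695, 4128 and 3922 in lacZ, 3386 and 4868 under sh4, and 1789 and 1492 under sh8. Both sh8 libraries lay far under all others, whereas the sh4 libraries lay on either side of the controls. The mean under sh8 was 1640 ± 210 (SD, n = 2), or 41.9% of the control mean of 3915 ± 217 (SD, n = 3), with a log2 fold change of -1.26 (SE 0.16, adjusted p 0.00374). Without sh8 replicate 2 the value was -1.13 and no longer passed (adjusted p 0.0711), and the same held in a fit without the variance trend (adjusted p 0.0677).

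The other 52 genes did not pass under sh8. Over all 53 the log2 fold change was negative for 37 genes (69.8%, against 51.2% of all genes) and positive for 16, with a median of -0.15 and a typical 95% interval of 0.32 to either side. Both sh8 libraries lay under all controls for 19 of the 53 genes, against 2762 of all 15420 genes tested (17.9%). They lay over all controls for 3 of the 53 (KIF2C, KIF20A and TOP2A), against 2549 of all genes tested (16.5%). KIF14, a motor needed for abscission, was second to ANLN in size. It read 2796, 2389 and 2525 in lacZ, 2268 and 2787 under sh4, and 1888 and 1643 under sh8. Both sh8 libraries lay under all others, but the change of -0.54 did not pass (adjusted p 0.0642). Without lacZ replicate 1, 5 genes (9.43%) were lower under sh8, namely CDC25B, MAD2L1, CDC20, KIF14 and ANLN, and the share of all genes rose to 5.75%. Of the 16 genes that fell under sh4, 15 had a negative value under sh8 as well, between -0.43 and 0.08 over all 16, and none of them passed there. Both comparisons share the 3 lacZ libraries.

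**Figure D3:**
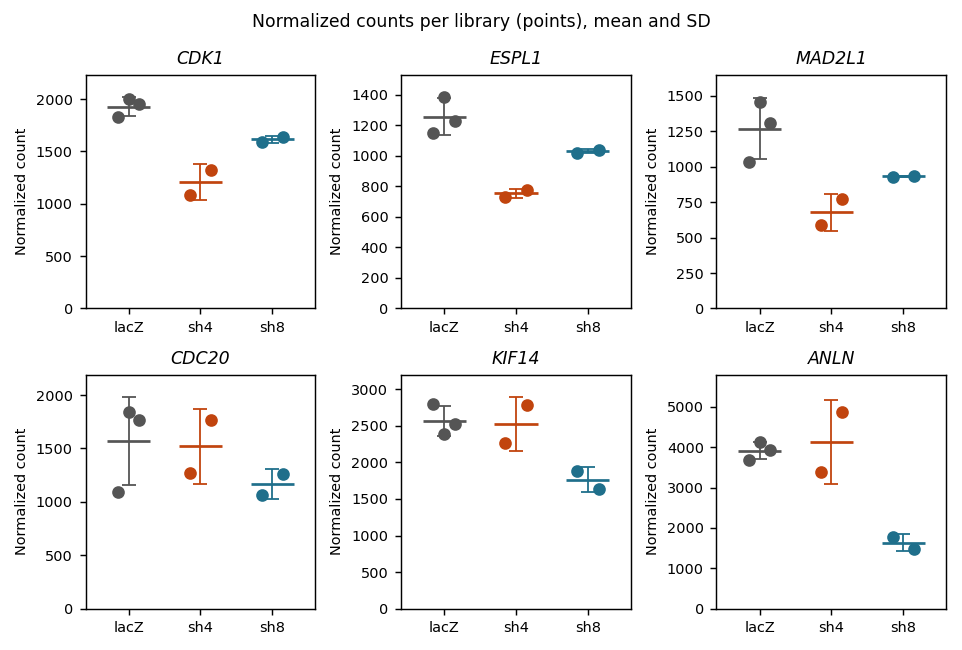
Normalized counts of 6 mitosis genes in each library (points), with group means (horizontal lines) and SD (error bars; n = 3, 2 and 2). CDK1, ESPL1 and MAD2L1 are lowest under sh4, KIF14 and ANLN are lowest under sh8, and the first CDC20 control lies at 1096, near the sh8 libraries.

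The hairpins were then compared with each other, since a call under a single hairpin does not show that they differ. Of the 53, 1 gene was higher under sh4 than under sh8, against 3.67% of all genes called higher, and none was lower, against 3.33%. At an unadjusted p under 0.05 in limma 15 of the 53 were lower, against 11.3% of all genes, and limma-voom gave 0 lower at the adjusted threshold. The 1 gene was ANLN, with a difference of 1.31 (SE 0.18, 95% interval 0.92 to 1.70, adjusted p 0.00305). It also passed the 2-fold threshold, as 1.93% of all genes did, and it passed in each of the 17 alternative fits. The level under sh4 was below that under sh8 for 46 of the 53 genes (86.8%, against 51.3% of all genes). The median difference was -0.22, where that of all genes was -0.01. Both sh4 libraries lay under both sh8 libraries for 24 of the 53 genes, against 4259 of all 15420 genes tested (27.6%). The genes that fell under sh4 are therefore not shown to respond differently to sh8. For CDK1 the difference was -0.43 (95% interval -0.73 to -0.13, adjusted p 0.0892), and for ESPL1 it was -0.45 (95% interval -0.76 to -0.14, adjusted p 0.0796).

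For 15 mitosis genes the mean was below that of the controls under sh4 and above it under sh8. This pattern of means was not counted over all genes, so it is not shown to be more common among the mitosis genes. In 2 of the 15 every sh4 library lay under and every sh8 library over all controls. The same held for 178 of all 15420 genes tested (1.15%). KIF20A, a motor of the midzone, stood at 988, 1229 and 1181 in lacZ, 631 and 952 under sh4, and 1243 and 1293 under sh8. TOP2A, the topoisomerase that disentangles sister chromatids, read 9279, 9279 and 9653 in lacZ, 6664 and 8346 under sh4, and 9887 and 11094 under sh8. The difference between the hairpins was -0.71 for KIF20A (adjusted p 0.0581) and -0.49 for TOP2A (adjusted p 0.0643), so neither passed. Without lacZ replicate 1, which enters through the shared estimate of spread, 7 genes (13.2%, against 6.21% of all genes in that fit) were lower under sh4 than under sh8, namely CDK1, ESPL1, CENPE, KIF2C, ASPM, KIF20A and TOP2A.

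Related lists of cell division genes were counted in the same fits to place the 53 genes. Among 22 other G2/M regulators, 6 fell under sh4 (27.3%, against 11.9% of all genes) and 0 under sh8 (against 1.54%). They include the kinase gene CHEK2, which read 454, 427 and 415 in lacZ, 225 and 209 under sh4 and 312 and 326 under sh8 (sh4 change -0.99, adjusted p 0.00139). They also include MYBL2, the MYB subunit of the activating MYB-MuvB complex, at 2319, 3142 and 2704 in lacZ, 1309 and 1499 under sh4, and 1986 and 1735 under sh8 (sh4 change -0.95, adjusted p 0.00201). For MYBL2 the fall held with the hairpins pooled (-0.74, adjusted p 0.036). LIN37, a MuvB core subunit, had the highest sh4 value of this list, at 0.55 (adjusted p 0.165).

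The structural lists were closer to the background of 11.9%. Of 17 genes of the anaphase-promoting complex and its regulators, 3 fell under sh4, among them the scaffold ANAPC1 (-0.63, adjusted p 0.0076) and FBXO5, an inhibitor of the complex (-0.47, adjusted p 0.0196). ANAPC16 had the highest value (0.41, adjusted p 0.0584). Of 31 other kinetochore genes, 4 fell, including CENPK and CENPH of the inner kinetochore (-0.68 and -0.55, adjusted p 0.0149 and 0.0202), and CENPC had the highest value at 0.17. Of 15 condensin and cohesin genes outside the 53, 1 fell (PDS5A, -0.44, adjusted p 0.0154). CDCA5, or sororin, which protects cohesion, was at -0.54 (adjusted p 0.0589), and the cohesin subunit STAG1 was highest at 0.24. Of 23 other spindle genes, 3 fell, FAM83D among them (-0.69, adjusted p 0.030), and 1 rose, against 10.5% of all genes called higher. The 1 that rose was NUMA1, which anchors spindle poles to the cell cortex. It had 3317, 3372 and 3253 in lacZ, 5064 and 4658 under sh4, and 3989 and 3983 under sh8, so that all knockdown libraries lay over all controls (sh4 change 0.55, adjusted p 0.00496). Under sh8, 0 genes of these 4 lists passed, where 1.54% of all genes were called lower and 1.38% higher.

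Genes of DNA replication, which act in S phase before the mitotic program, gave the highest share that fell under sh4 among these cell division lists. Of 34, 15 fell under sh4 (44.1%, against 11.9% of all genes). Under sh8 1 fell (2.94%, against 1.54%), and with the hairpins pooled 6 fell (17.6%, against 2.06%). All 34 had a negative value under each hairpin, against 50.6% of all genes under sh4 and 51.2% under sh8. The median was -0.46 under sh4 and -0.36 under sh8, where the 53 mitosis genes had -0.35 and -0.15. RFC3, a clamp loader subunit, read 1959, 2053 and 1954 in lacZ, 1051 and 1158 under sh4 and 1587 and 1330 under sh8 (sh4 change -0.85, adjusted p 0.00134). MCM10, needed to start replication forks, stood at 924, 1094 and 1004 in lacZ, 527 and 569 under sh4 and 772 and 647 under sh8 (sh4 change -0.87, adjusted p 0.00218). In both genes the 3 groups were apart and sh4 was lowest. The smallest change was that of MCM5, a helicase subunit, at -0.03 under sh4.

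**Figure D4:**
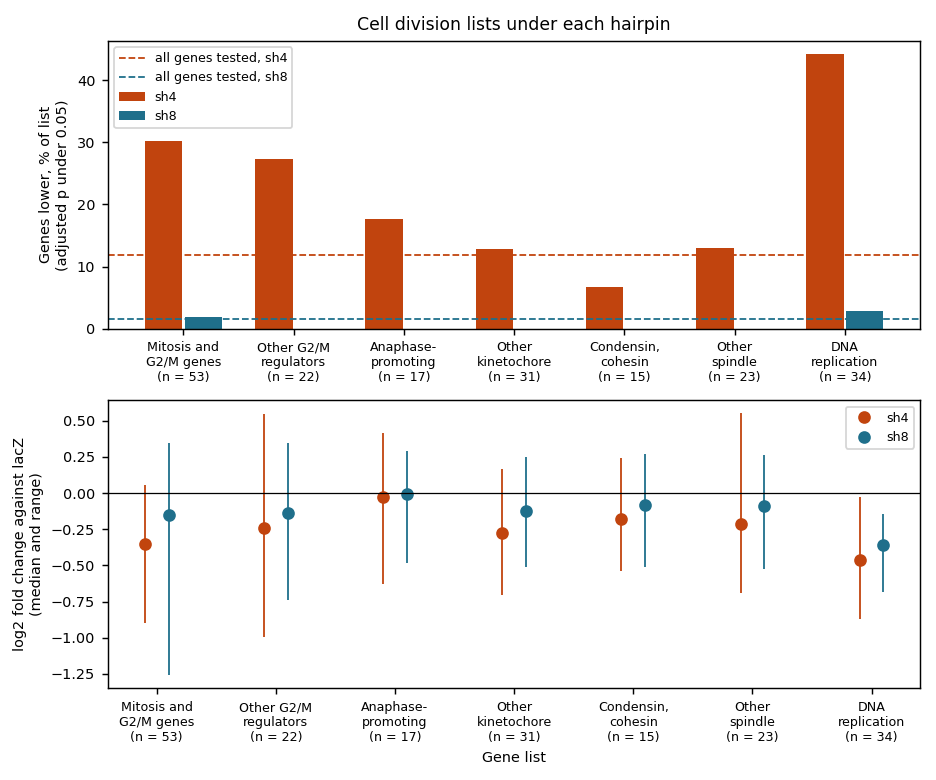
Upper panel: percent of each gene list that fell under sh4 and sh8 at an adjusted p under 0.05, with dashed lines for all genes tested (11.9% and 1.54%). Lower panel: median (points) and range (lines) of the log2 fold change in each list; DNA replication is lowest at -0.46 and -0.36, and the anaphase-promoting list lies near 0.

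Most melanocytic markers were also lower under sh4. Of 7, 6 fell under sh4, against 11.9% of all genes, and 0 under sh8, against 1.54%. The melanosome enzyme genes TYRP1 and DCT had sh4 changes of -2.04 and -3.31 (adjusted p 8e-05 and 8.48e-05) and TYR was at 0.15. The sh4 median was -1.27 for the markers and -0.35 for the mitosis genes. Between the hairpins, 6 of the 7 markers were lower under sh4 than under sh8, against 3.33% of all genes, whereas 0 of the 53 mitosis genes were. The part of this shift in the mitosis genes was not tested.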

How the data were processed

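The authors trimmed reads with Cutadapt, aligned them to hg38 with STAR, quantified genes with Salmon and deposited normalized counts (counts divided by a DESeq2 size factor per library). The libraries were rRNA-depleted and stranded. Tool versions and the annotation release are not given in the sources used here. Of the values, 100% were whole multiples of 1 read (tolerance 0.05 reads), which gave the reads assigned to genes in each library.

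Values tested were log2(normalized count + 1) for the 15420 of 21305 genes with a mean of at least 10, tested with limma 3.58.1 (R 4.3.3) with a variance trend and Benjamini-Hochberg adjustment over all of them. The scale understates changes of low genes. Pooled hairpins were set against lacZ in a model with 2 levels. The single hairpins were set against lacZ, and against each other, in a model with 3 groups and 1 shared variance. "Fell" and "rose" mean an adjusted p under 0.05. The script was tested on simulated data with a fixed dispersion and the same changes under both hairpins. Recovery was required only for changes of 2-fold or more, so that check does not cover the smaller changes reported here. No negative binomial model was fitted. The recovered reads were tested with limma-voom instead.

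The mitosis genes, related lists and tests were chosen with earlier results of these data known. Values in every library are given for CDK1 and CDKN3, which the study names, for the gene of each role with the lowest p in each comparison with lacZ or the highest mean, and for genes differing between hairpins. Of each related list the 2 genes with the lowest p under sh4 and the 1 with the highest fold change are named. CKS2, AURKB, CENPE, CDC20, KIF14, KIF20A, TOP2A, and the genes given by fold change alone, were added after their values were seen. Gene coordinates and transcript lengths are from GENCODE on hg38. Alternatives covered the pseudocount, the minimum mean, scaling, the variance trend, the replicate block, limma-voom, the libraries fitted and leaving out each library.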

Additional observations from a re-analysis of the deposited data

Results flagged for a closer look

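In 2 of the 53 genes 1 knockdown library stood apart from the other 3 by Dixon's criterion, where chance gives about 1 in 20. For CKS1B, a subunit of cyclin-dependent kinases, the gap was 0.972 of the range. The normalized count was 293 in sh4 replicate 1 and 427, 430 and 426 in the others. For BUB1, a checkpoint kinase, the gap was 0.924 of the range, with 1266 in sh4 replicate 1 and 1644, 1617 and 1646 in the others. The lone library was sh4 replicate 1 in both.

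ANLN differed between the hairpins by 1.31 on the log2 scale (sh4 minus sh8, adjusted p 0.00305 in limma), as the sh4 libraries had 3386 and 4868 and the sh8 libraries 1789 and 1492.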

How the results depend on the processing

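With 2 libraries per hairpin, leaving 1 out leaves a lone library, which is assumed to vary like the other groups. Over these fits the number of mitosis genes lower was 0 to 1 for both hairpins together, 2 to 23 under sh4, 0 to 5 under sh8 and 0 to 7 for sh4 against sh8, where 1 to 2 were higher. The share of all genes called lower moved too, over 0.123% to 3.36%, 5.32% to 17.2%, 0.195% to 5.75% and 0.532% to 6.21%. The median log2 fold change ran from -0.29 to -0.15, -0.50 to -0.17, -0.21 to -0.10 and -0.41 to -0.072, in that order. With the mean of both hairpins in a fit with 3 groups, 9 genes were lower instead of 0, as the share of all genes went from 2.06% to 8.77%. Under sh4 the count of 16 became 10 with equal library totals (9.68% of all genes) and 5 without the variance trend (7.89%). Under sh8 it became 0 without the trend (0.188% of all genes). For sh4 against sh8, 2 genes were higher with equal totals (5.57% of all genes), and the 0 lower genes became 3 with quantile normalization (3.96%), 3 with the replicate block (4.58%) and 1 in a fit of the 2 groups alone (4.23%). Equal totals also turned the split of all calls under sh4 from 11.9% lower and 10.5% higher to 9.68% and 14.1%, and for sh4 against sh8 from 3.33% and 3.67% to 2.75% and 5.57%. Deviations of same-numbered libraries from their group mean correlated from -0.08 to 0.34. In groups of 2 libraries these deviations mirror each other, so this check cannot decide whether replicate numbers pair the samples. With the block 16 genes were lower under sh4 (11.4% of all genes), with CENPF and KIF20A in place of CENPE and HMMR. The cause of these shifts was not tested. Over 18 results of single genes and 17 alternatives, 224 of 306 values stayed past the threshold, 82 did not, and 0 changed sign.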
